A study of Mus musculus with 4 samples.

Results

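The TRBJ1 cluster is the first of the pair of joining-segment clusters of the mouse T-cell receptor beta locus, and its members here were TRBJ1-1, TRBJ1-2, TRBJ1-3, TRBJ1-4, TRBJ1-5 and TRBJ1-6. A receptor transcript was counted when its assembled contig was called productive, was a beta chain (TRB) and carried one of these 6 J names. The rule gave 84 of the 235 productive TRB contigs, in 81 of the 218 cells with a productive TRB, and these made up 62 of the 169 distinct TRB chains (same V name, J name and CDR3 nucleotides). All 6 segments were found in both receptor libraries.

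The series studied retinoic acid signalling in IDH mutant glioma of the mouse. C57BL6 mice aged 6 weeks received 50000 neurosphere cells in the striatum, and the treated mice then got all-trans retinoic acid (ATRA, an active vitamin A derivative) every other day, at 10 mg/kg, until signs of brain disease, while the other mice got a control of unstated content and dose. Both groups carried the same kind of tumor, and immune cells were sorted by CD45, a surface protein of white blood cells, from tumor tissue together with the brain around it. There was 1 receptor library per treatment, made with a 5′ single-cell kit. The labels do not say how many mice went into each library or whether any were pooled. No test between treatments was therefore possible, and every interval below is an exact 95% interval that covers counting error only.

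A T cell builds its beta chain gene by joining 1 V, 1 D and 1 J segment, and bases are nibbled from the segment ends and others inserted at the joints. The stretch across the joints encodes the CDR3, the loop that touches the peptide, and it ends in a conserved phenylalanine encoded by the J segment. TRBJ1 segments lie between the TRBD1 segment and the TRBC1 constant gene, upstream of the second cluster with TRBD2, the TRBJ2 segments and TRBC2.

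In the RefSeq annotation of GRCm38.p6, TRBD1 lies at chr6:41533201-41533212 and TRBC1 at chr6:41538219-41539665. Between them are the 6 members: TRBJ1-1 at chr6:41533864-41533911, TRBJ1-2 at chr6:41534001-41534048, TRBJ1-3 at chr6:41534323-41534372, TRBJ1-4 at chr6:41534811-41534861, TRBJ1-5 at chr6:41535084-41535133 and TRBJ1-6 at chr6:41535554-41535606. Each is annotated as a J segment. RefSeq also lists TRBJ1-7 after them, a name that no contig carried. The member closest to TRBD1, TRBJ1-1, starts 652 bases after it, and the farthest, TRBJ1-6, starts 2342 bases after it.

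The J part of the CDR3 is what tells the segments apart, so the ending shared by the chains of each segment is shown here, read from the deposited CDR3 nucleotides. Each ending was extended from the 3′ end one base at a time while over 50% of the chains still matching, and at least 3 of them, had the same next base. The capitals mark the last codon, that of the conserved phenylalanine.
TRBJ1-1: aacacagaagtcttcTTT
TRBJ1-2: aaactccgactacaccTTC
TRBJ1-3: agttctggaaatacgctctatTTT
TRBJ1-4: tccaacgaaagattatttTTC
TRBJ1-5: aaccaggctccgcttTTT
TRBJ1-6: ctataattcgcccctctacTTT

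The deposited J names matched these endings. All 62 distinct chains matched the ending of their own segment better than that of any other, with at least 12 bases. The endings were built from the same chains, so this checks only that the names are used in 1 way. The whole ending was present in 13 of 22 TRBJ1-1 chains, 6 of 8 TRBJ1-2 chains, 3 of 7 TRBJ1-3 chains, 3 of 10 TRBJ1-4 chains, 3 of 4 TRBJ1-5 chains and 4 of 11 TRBJ1-6 chains.

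The control library held 74 cells with 539 receptor UMIs (unique molecular identifiers, which count captured molecules) and the ATRA library held 160 cells with 2520 UMIs. No cell barcode occurred in both. TRBJ1 contigs had a median of 3 UMIs in control (quartiles 2 and 5, highest 11) and 5 in ATRA (quartiles 3 and 8, highest 22), against 4 and 7 for TRBJ2 contigs. Of cells with TRBJ1, 12 of 22 in control, 54.5% (32.2 to 75.6), and 49 of 59 in ATRA, 83.1% (71.0 to 91.6), also had an alpha chain (TRA). For cells with TRBJ2 these shares were 40.0% and 80.0%. The control library thus had fewer cells and fewer UMIs per contig. Its contigs held 5281204 reads over the 74 cells, against 11252330 over the 160 ATRA cells, so the lower UMI counts do not stand for fewer reads per cell.

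TRBJ1 was the less used cluster in both libraries. Of 70 cells with a TRB in control, 22 carried a TRBJ1 chain, 31.4% (20.9 to 43.6). In ATRA 59 of 148 such cells did, 39.9% (31.9 to 48.2). TRBJ2 was carried by 71.4% (59.4 to 81.6) and 64.2% (55.9 to 71.9). Some cells had both clusters, 2 in control and 6 in ATRA, and 1 and 2 cells had a pair of TRBJ1 chains. The ratio of the TRBJ1 shares, ATRA over control, was 1.27 with an interval of 0.766 to 2.17, which includes 1. Among cells with a TRA as well, the shares were 40.0% and 40.5% and the ratio was 1.01. Over deposited clonotypes, the groups of cells to which the authors' software gave 1 receptor number, the shares were 32.3% of 62 and 40.7% of 118.

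TRBJ1-1, the member next to TRBD1, was the most used of the cluster. In control 10 cells carried it, 14.3% (7.07 to 24.7), and in ATRA 23 did, 15.5% (10.1 to 22.4). TRBJ1-6, the member farthest from TRBD1, was on 5 cells in control, 7.14% (2.36 to 15.9), and on 10 in ATRA, 6.76% (3.29 to 12.1). For TRBJ1-2 the numbers were 3 cells in control, 4.29%, and 10 in ATRA, again 6.76%. The remaining members were rarer. TRBJ1-4 was on 2 cells in control, 2.86%, and on 8 in ATRA, 5.41% (2.36 to 10.4). TRBJ1-3 was on 1 cell in control, 1.43%, and on 6 in ATRA, 4.05% (1.50 to 8.61). TRBJ1-5 was the least used, with 1 cell in control and 4 in ATRA, 2.70% (0.741 to 6.78).

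With both libraries joined, the order over cells was TRBJ1-1 (40.7% of the 81 cells, 29.9 to 52.2), TRBJ1-6 (18.5%), TRBJ1-2 (16.0%), TRBJ1-4 (12.3%), TRBJ1-3 (8.64%) and TRBJ1-5 (6.17%). The intervals of neighbours below TRBJ1-1 overlapped throughout this order. That of TRBJ1-1 lay above those of the others over cells, with 28.7% the highest upper limit among them, for TRBJ1-6. Counted once per distinct chain, TRBJ1-1 made 22 of 62 chains, 35.5% (23.7 to 48.7), and its interval then overlapped that of TRBJ1-6, 17.7% (9.20 to 29.5). The next were TRBJ1-4 with 16.1%, TRBJ1-2 with 12.9%, TRBJ1-3 with 11.3% and TRBJ1-5 with 6.45%. TRBJ1-2 and TRBJ1-4 thus changed places between the counts, and a single TRBJ1-2 chain in 5 ATRA cells is described further on.

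Counted over cells, no member differed between the libraries by the size rule, a ratio of at least 2 in either direction for segments with at least 10 cells. Of the 6 members 4 had enough cells, and 0 of these 4 passed, against 26.9% of all 26 V and J segments of both loci with enough cells. The ratios of ATRA to control shares were 1.09 for TRBJ1-1 (0.498 to 2.56), 1.58 for TRBJ1-2 (0.406 to 8.91), 1.89 for TRBJ1-4 (0.378 to 18.3) and 0.946 for TRBJ1-6 (0.295 to 3.53). TRBJ1-3, at 2.84 (0.344 to 131), and TRBJ1-5, at 1.89 (0.187 to 93.2), rested on 1 control cell each. All 6 intervals included 1. On other counts TRBJ1-4 reached 2.10 over clonotypes (0.419 to 20.3) and 2.09 over distinct chains (0.417 to 20.2). TRBJ1-2 reached 2.23 among cells with a TRA. Each of these rests on 1 or 2 items in control. The share of all segments past the rule was counted over cells alone, so these ratios have no such share to be read against.

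**Figure D1:**
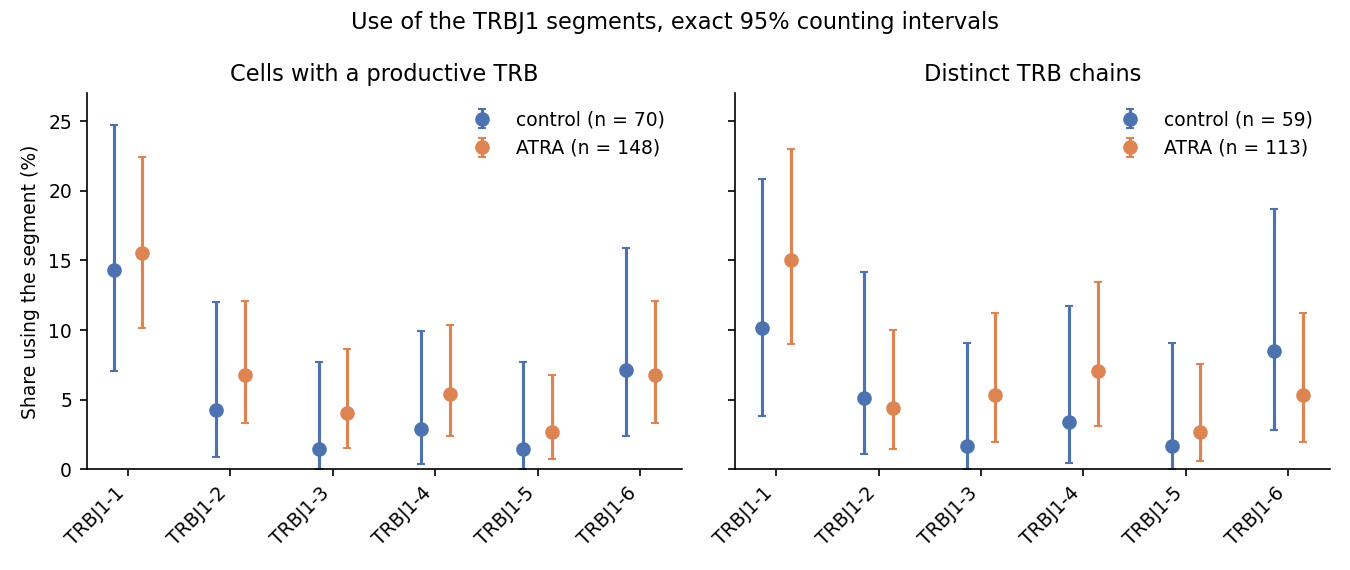
Share of cells with a productive TRB (left) and of distinct TRB chains (right) that used each TRBJ1 segment, in percent on the vertical axis, for the control and the ATRA library. Points are shares and bars exact 95% counting intervals. TRBJ1-1 stands highest in both panels, at 14.3% and 15.5% of cells, and the bars of the libraries overlap for every segment.

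The CDR3s of the members were of similar length. Counted in amino acids with both anchor residues, distinct TRBJ1 chains had a mean length of 14.0 ± 1.37 (SD, n = 18 chains) in control and 13.7 ± 1.35 (n = 45) in ATRA. Lengths ran from 11 to 17, and 13 and 15 amino acids were the most common, with 18 and 17 of the 62 chains, while 12 chains had 14. TRBJ1-6 had the longest mean, 14.3 ± 1.56 (n = 11), and TRBJ1-5 the lowest, 13.5 ± 1.00 (n = 4). The other means were 13.7 ± 1.46 for TRBJ1-1 (n = 22), 13.6 ± 1.30 for TRBJ1-2 (n = 8), 14.0 ± 0.816 for TRBJ1-3 (n = 7) and 13.6 ± 1.51 for TRBJ1-4 (n = 10). These means lay within 1 SD of each other. TRBJ2 chains had a mean of 14.1 ± 1.29 (n = 107).

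The J end of a chain was scored as the number of bases missing from the 5′ side of the shared ending of its segment. Because the ending comes from the same chains and not from the germline, a score is too low where the ending is shorter than the germline segment and too high where it is longer. In 32 of the 62 distinct TRBJ1 chains no base was missing, or in 35 with the shorter TRBJ1-3 ending described below. The mean was 1.94 ± 2.24 bases (SD, n = 18) in control and 1.40 ± 1.86 (n = 45) in ATRA. The score was 0 in 7 of 18 and 25 of 45 chains, or in 8 and 27 with the shorter TRBJ1-3 ending. Over contigs rather than distinct chains the control mean was 2.83, since 6 control cells carried 1 chain with 6 bases missing.

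With the endings as built, TRBJ1-2 scored lowest, 0.50 ± 1.07 bases (n = 8, range 0 to 3), and TRBJ1-1 scored 1.05 ± 1.76 (n = 22, range 0 to 6). TRBJ1-4, at 2.50 ± 1.90 (n = 10, range 0 to 5), and TRBJ1-6, at 2.64 ± 2.42 (n = 11, range 0 to 7), scored highest. TRBJ1-5 scored 5 missing bases in 1 of its 4 chains and none in the others. Its short ending leaves 32 RefSeq bases, the most of any member, so bases lost may go unscored. The endings leave 31 bases for TRBJ1-6, 30 for TRBJ1-1 and TRBJ1-4 and 29 for TRBJ1-2. The scores of the members are therefore not on 1 scale. TRBJ1-3 scored 1.57 ± 1.90 (n = 7), but its ending of 24 bases leaves only 26 of the 50 bases that RefSeq gives the segment, against 29 to 32 for the other members, so it may reach past the germline segment. With its ending limited so that 29 bases are left, as for TRBJ1-2, its mean was 0.286 (range 0 to 2), below that of TRBJ1-2. With the endings as built, the chains of every member spread over a range of at least 3 bases, and the means of neighbours by score lay within their SDs.

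**Figure D2:**
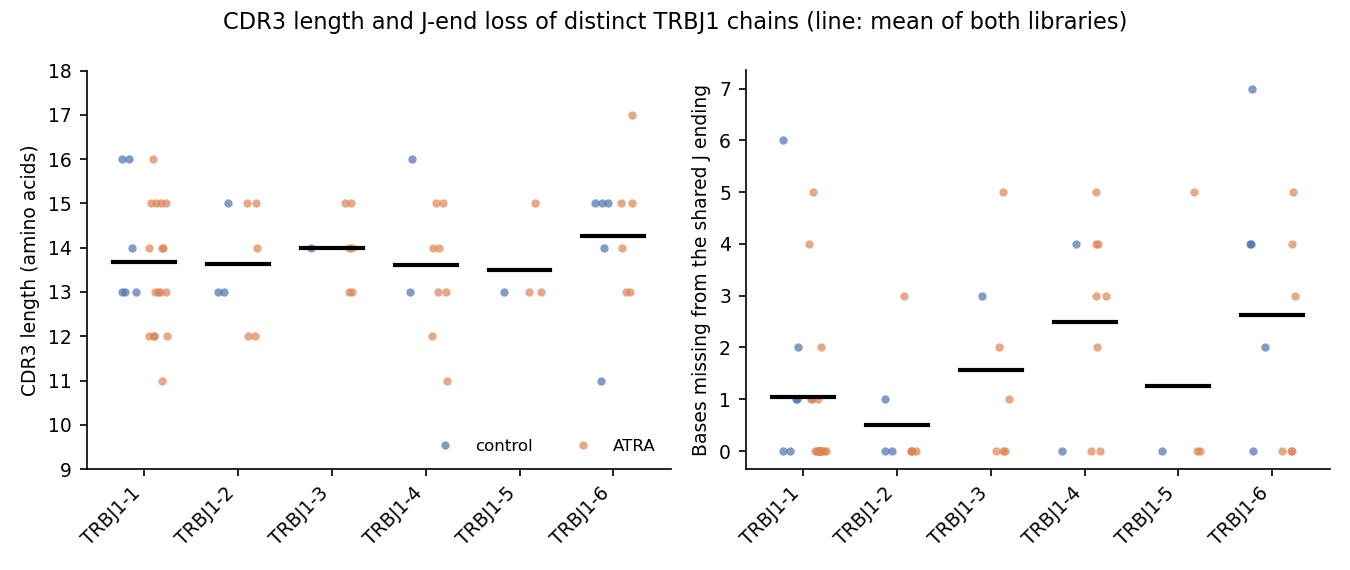
CDR3 length in amino acids (left) and bases missing from the shared J ending (right) for each distinct TRBJ1 chain, by segment. Points are chains, blue for control and orange for ATRA, shifted sideways so that they can be seen, and black lines are means over both libraries. Lengths centre between 13.5 and 14.3 for every segment, while many chains of TRBJ1-1 and TRBJ1-2 sit at 0 missing bases and the lines of TRBJ1-4 and TRBJ1-6 lie highest.

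Between the shared start of the V name and the shared J ending, TRBJ1 chains held 9.52 ± 3.59 bases (n = 60, with 2 chains left out because their V names had no shared start). This stretch holds what is left of the D segment and the inserted bases. It was 5.14 ± 4.30 bases in the 7 TRBJ1-3 chains, scored with the longest ending, and between 8.75 and 10.8 on average for the other members. The stretch was not counted again with the limited TRBJ1-3 ending, and the cause of the gap was not tested. TRBJ2 chains held 10.5 ± 3.49 (n = 98).

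A hexamer picked after its values were seen set the clusters apart, counted over the whole CDR3. GACTGG occurred in 0 of the 62 distinct TRBJ1 CDR3s, which allows a share of up to 5.78%, and in 27 of 107 TRBJ2 CDR3s, 25.2% (17.3 to 34.6). GGACAG, picked in the same way, occurred in 16 TRBJ1 CDR3s, 25.8% (15.5 to 38.5), and in 22 TRBJ2 CDR3s, 20.6% (13.4 to 29.5). It was found with all 6 members, in 5 TRBJ1-1 chains, 4 each of TRBJ1-4 and TRBJ1-6, and 1 each of TRBJ1-2, TRBJ1-3 and TRBJ1-5. Among 119 distinct TRA chains, which have no D segment, GGACAG occurred in 1 and GACTGG in 3. Neither was found in any of these CDR3s on the other strand. No contig had a D segment name, and germline D sequences were not used here, so no D segment was assigned.

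TRBJ1 segments joined to a broad set of V segments. Of 21 TRBV names in the data, 17 were found beside TRBJ1 (9 in control and 16 in ATRA), 20 beside TRBJ2 and 16 beside both. They formed 45 of the 102 possible combinations with the 6 members. TRBJ1-1 had 12 V partners, TRBJ1-4 and TRBJ1-6 had 8 each, TRBJ1-2 had 7, TRBJ1-3 had 6 and TRBJ1-5 had 4, an order that follows the number of chains.

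The V name with most distinct TRBJ1 chains was TRBV12-2+TRBV13-2, a fused name that the files use for a neighbouring pair of segments. It had 7 chains, 11.3% (4.66 to 21.9), against 12.1% of TRBJ2 chains. By library it made 11.1% of the distinct TRBJ1 chains in each, but over cells 31.8% of the TRBJ1 cells in control and 8.47% in ATRA, and 6 of its 7 control cells carried 1 chain. TRBV13-1, TRBV5 and TRBV20 had 6 chains each, 9.68% (3.63 to 19.9), and TRBV1 and TRBV19 had 5 each, 8.06% (2.67 to 17.8). Beside TRBJ2 the shares of TRBV13-1, TRBV5 and TRBV19 were each 9.35%, and that of TRBV1 was 5.61%. The leading partners of TRBJ1-1 were TRBV13-3 and TRBV5 with 4 chains each, and 3 of the 4 TRBV13-3 chains encoded the same CDR3. No partner of the other members had more than 2 chains. These were TRBV1 for TRBJ1-2, TRBV3 for TRBJ1-3, the fused name and TRBV31 for TRBJ1-4, and TRBV13-1, TRBV19 and TRBV29 for TRBJ1-6, while TRBJ1-5 had 4 V names with 1 chain each.

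TRBV20 and TRBV26 were spread unevenly over the clusters, and both were singled out after their values were seen. TRBV20 was found with 5 of the 6 members, in 3 control and 6 ATRA cells, but in 0 of 107 distinct TRBJ2 chains, which allows up to 3.39%. No nonproductive contig carried TRBV20 either. TRBV26 made 1 of 62 TRBJ1 chains, 1.61% (0.0408 to 8.66), and 14 of 107 TRBJ2 chains, 13.1% (7.34 to 21.0), with intervals that overlap.

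**Figure D3:**
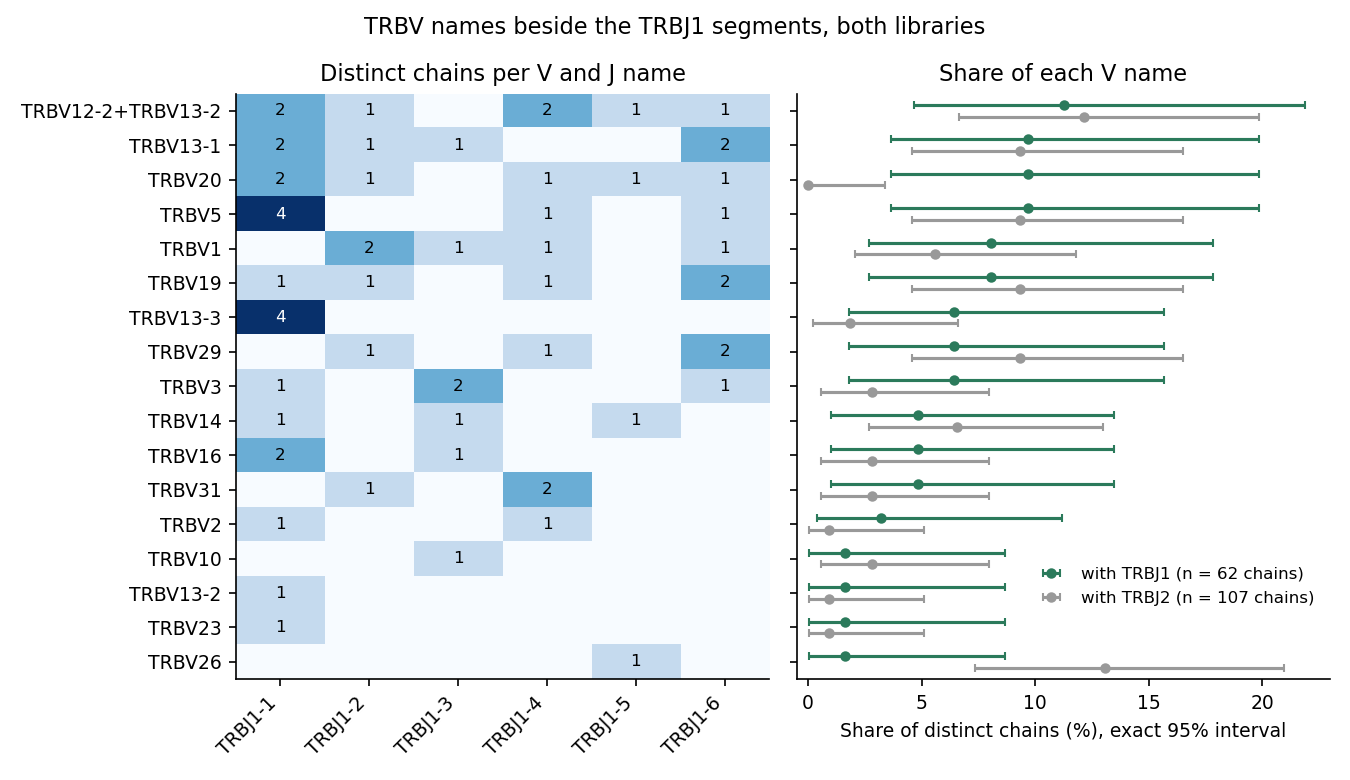
Left, number of distinct chains for each TRBV name (rows) and TRBJ1 segment (columns) over both libraries, with darker cells for more chains. Right, share of each V name in percent among the 62 distinct TRBJ1 chains (green) and the 107 distinct TRBJ2 chains (grey), with exact 95% intervals. The intervals of all 17 V names overlap except those of TRBV20, at 9.68% against 0.

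Nearly all TRBJ1 contigs carried the name of the constant gene downstream of them, TRBC1. It stood on 22 of 23 productive TRBJ1 contigs in control, 95.7% (78.1 to 99.9), and on 57 of 61 in ATRA, 93.4% (84.1 to 98.2). No other C name was found on them. None of the 151 productive TRBJ2 contigs had a C name, which allows up to 2.41%. Their median length of 523 bases was nevertheless close to the 559 of TRBJ1 contigs with a C name. Among members the count ran from 4 of 5 contigs for TRBJ1-5 through 12 of 13 for TRBJ1-2, 14 of 15 for TRBJ1-6 and 32 of 34 for TRBJ1-1 to 7 of 7 for TRBJ1-3 and 10 of 10 for TRBJ1-4.

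The 5 TRBJ1 contigs without a C name were thinly covered. They had 1 or 2 UMIs each and lengths of 420 to 604 bases (median 442), against a median of 5 UMIs and lengths of 503 to 711 for the 79 contigs with TRBC1. At 3 UMIs or more the share was 100% in both libraries. Each of the 5 CDR3s without a C name was found with TRBC1 in another cell. The V and J names were the fused name with TRBJ1-1 in control, and TRBV13-3 with TRBJ1-1, TRBV29 with TRBJ1-2, TRBV14 with TRBJ1-5 and TRBV19 with TRBJ1-6 in ATRA, given here because the count is small.

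**Figure D4:**
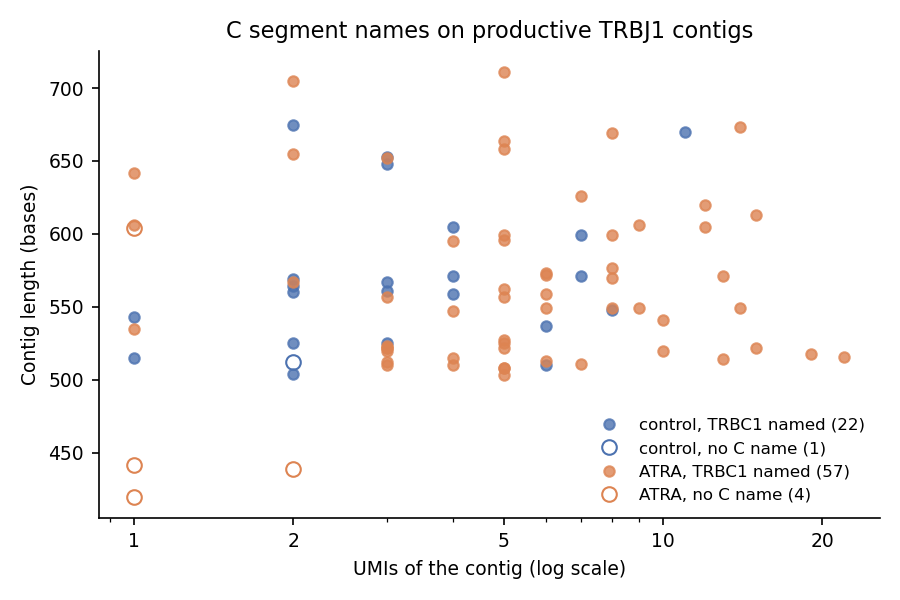
Contig length in bases (vertical axis) against UMIs per contig (horizontal axis, log scale) for the 84 productive TRBJ1 contigs, blue for control and orange for ATRA. Filled points carry the TRBC1 name and open circles no C name. The 5 open circles lie at 1 or 2 UMIs.

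The 62 distinct chains encoded 57 CDR3 amino acid sequences, of which 45 were found in 1 cell and 12 in several. The repeated CDR3s were carried by 8 of the 22 TRBJ1 cells in control and 31 of the 59 in ATRA. By deposited clonotype, 4 of these 22, 18.2% (5.19 to 40.3), and 19 of these 59, 32.2% (20.6 to 45.6), were in a clonotype of several cells, and for TRBJ2 the shares were 20.0% and 29.5%. Of the 12 repeated CDR3s, 2 were made by several nucleotide sequences and 2 occurred in both libraries, with the TRBV1 CDR3 described further on in both sets.

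The repeated CDR3 with most nucleotide versions and most cells was 1 loop of 12 amino acids made with TRBJ1-1 and TRBV13 segments. In ATRA 7 of 148 cells carried it, 4.73% (1.92 to 9.50), and in control 0 of 70, which allows up to 5.13%. It was encoded in 4 ways, shown here because separate sequences give the same protein loop. The capitals mark the 3 of 36 positions that differ.
TRBV13-1, 1 cell: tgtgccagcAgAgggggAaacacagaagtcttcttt
TRBV13-3, 1 cell: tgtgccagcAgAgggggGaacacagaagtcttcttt
TRBV13-3, 3 cells: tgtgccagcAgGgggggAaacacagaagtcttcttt
TRBV13-3, 2 cells: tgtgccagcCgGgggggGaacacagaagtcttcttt

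With positions counted from 1 at the 5′ end of the CDR3, the versions below the first differ from it by A18G, by A12G, and by A10C, A12G and A18G. All these differences are silent. The cell with the TRBV13-1 version had 3 UMIs and that with the second version 4. The cells with the third version had 1, 1 and 3, and those with the last 4 and 5. At a minimum of 3 UMIs, 5 of the 7 cells were left, and they still held all 4 versions. The authors' software had placed the 7 cells in 5 clonotypes.

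The alpha chains beside the TRBV13 loop also shared features. A TRA was found in 6 of the 7 cells, and all 6 used TRAJ34, 100% (54.1 to 100). TRAJ34 was singled out after its values were seen, and the interval counts cells of 1 clonotype as separate. None of these 6 had a second productive TRB, while the cell without a TRA also carried a TRBV1 and TRBJ2-5 chain with 6 UMIs. Among the other ATRA cells with both chains 9 of 115 used TRAJ34, 7.83% (3.64 to 14.3), and among those with another TRBJ1 chain 5 of 43 did, 11.6% (3.89 to 25.1). The 6 cells held 4 TRA CDR3s, all of 13 amino acids. Both TRAV14D-1 forms were found in 2 cells each and both TRAV9N-4 forms in 1 each. The cells that shared a TRAV14D-1 form were also of 1 deposited clonotype. A TRAV9N-4 cell had 1 UMI on its TRA and 1 UMI on its TRB contig, which had no C name. A TRAV14D-1 form was also found in 2 ATRA cells with no productive TRB. Over all ATRA cells with TRBJ1 and a TRA, 11 of 49 used TRAJ34, 22.4% (11.8 to 36.6), against 6 of 76 with TRBJ2, 7.89% (2.95 to 16.4). The control library had 0 of 12 and 0 of 20.

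A TRBV1 and TRBJ1-2 CDR3 of 15 amino acids was found in 1 cell of each library, with 7 UMIs in control and 13 in ATRA. The nucleotide sequences differed at 1 silent position, T24A from control to ATRA, shown in capitals.
TRBV1 CDR3, control: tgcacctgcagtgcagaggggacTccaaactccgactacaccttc
TRBV1 CDR3, ATRA: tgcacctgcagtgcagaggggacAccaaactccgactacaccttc
The ATRA cell held an alpha chain and the control cell none, so the pairs could not be compared.

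Of the 6 distinct TRBV20 chains, 3 were found beside 1 alpha chain. A TRBV20 and TRBJ1-1 chain was the 1 distinct TRBJ1 chain shared by both libraries, with the same nucleotides in 1 control cell (8 UMIs) and 2 ATRA cells (1 and 2 UMIs). A TRBV20 and TRBJ1-6 chain was found in 2 other ATRA cells (1 and 3 UMIs). The sequences are shown because they share their first 23 bases, 9 beyond the shared TRBV20 start of 14, and then run into different J segments. A further TRBV20 and TRBJ1-1 chain, in 1 control cell (2 UMIs), shares only the first 14 bases. V starts were extended by the rule used for the J endings. The last bases of the TRBV20 start are carried by these 3 chains and not by the other TRBV20 chains. The start of 14 was thus set by the chains compared here. The TRBJ1-6 chain and this last chain were singled out after their values were seen. The capitals mark the bases shared with the first chain from the start.
TRBV20 and TRBJ1-1, both libraries: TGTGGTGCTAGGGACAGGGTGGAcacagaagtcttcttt
TRBV20 and TRBJ1-6, ATRA: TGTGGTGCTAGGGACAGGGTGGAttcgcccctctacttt
TRBV20 and TRBJ1-1, control alone: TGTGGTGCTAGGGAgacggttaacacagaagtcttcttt

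All 6 cells with these 3 chains held 1 alpha chain CDR3 by amino acids, made with TRAV12-2 and TRAJ26. Its nucleotides were not the same throughout. The cells with the TRBJ1-6 chain had A18G relative to those with a TRBJ1-1 chain, a silent change shown in capitals.
TRA beside TRBJ1-1: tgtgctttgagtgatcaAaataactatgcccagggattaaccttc
TRA beside TRBJ1-6: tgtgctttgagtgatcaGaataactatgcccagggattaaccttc
This alpha chain occurred in 4 cells of each library. In ATRA all 4 had a TRBV20 and TRBJ1 chain, and in control 2 did, while the other two had TRBJ2 chains. Of the TRBV20 and TRBJ1 cells with any TRA, 2 of 2 in control and 4 of 5 in ATRA held it. The chain shared by the libraries rests on few molecules. With at least 3 UMIs it was left in 1 control cell and 0 ATRA cells.

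In control the most frequent TRBJ1 CDR3 had 13 amino acids and was made with the fused V name and TRBJ1-1. It was on 6 of 70 cells, 8.57% (3.21 to 17.7), and in ATRA on 0 of 148, which allows up to 2.46%. Its sequence is shown because it is the TRBJ1-1 chain with most of the J ending gone, 6 bases, and the capitals mark the part of the shared ending that is left.
Fused V name and TRBJ1-1, control: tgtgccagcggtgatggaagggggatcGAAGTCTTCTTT
All 6 contigs had the same nucleotides and 2, 2, 2, 3, 4 and 7 UMIs, so 3 cells were left at a minimum of 3 UMIs. The cells did not share 1 alpha chain. A TRAV16D-DV11 and TRAJ23 chain was found in 2 of them, a TRAV9N-4 and TRAJ40 chain in 1 and the TRAV12-2 and TRAJ26 chain described above in 1, the cell that also carried a TRBV20 chain, and the other two had none. These were 6 of the 7 control cells with the fused V name and TRBJ1.

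The other frequent TRBJ1 CDR3s were found in ATRA and not in control. A TRBV29 and TRBJ1-2 CDR3 of 15 amino acids was on 5 ATRA cells, 3.38% (1.11 to 7.71). Its contigs had 1, 5, 5, 8 and 22 UMIs, the last the highest of any TRBJ1 contig, and 3 of the cells held 1 alpha chain, made with TRAV4-4-DV10 and TRAJ49. The cell with 1 UMI held another alpha chain, with TRAV7-4 and TRAJ32, and the remaining cell none. These 5 cells were among the 10 ATRA cells with TRBJ1-2. A TRBV19 and TRBJ1-6 CDR3 was the longest of the cluster, 17 amino acids, and was on 4 ATRA cells, 2.70% (0.741 to 6.78), with 1, 2, 3 and 5 UMIs. All 4 held 1 alpha chain, with TRAV3D-3 and TRAJ40. Both sequences keep their whole J ending, and the second holds the GGACAG hexamer, in capitals.
TRBV29 and TRBJ1-2: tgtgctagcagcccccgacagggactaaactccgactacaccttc
TRBV19 and TRBJ1-6: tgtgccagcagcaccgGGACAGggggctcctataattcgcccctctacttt

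A TRBJ1-1 CDR3 of 15 amino acids met the rule for several sequences through its V name alone. It was found in 2 ATRA cells with the same nucleotides and the same alpha chain, made with TRAV7D-2 and TRAJ37, but the V name was TRBV13-2 on the contig with 2 UMIs and the fused name on that with 8. It was therefore counted as 2 distinct chains.

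Contigs with a single UMI in ATRA came from chains that other cells also carried. All 6 TRBJ1 contigs with 1 UMI in ATRA, 100% (54.1 to 100), belonged to a distinct chain found in several cells, against 20 of 55 with more UMIs, 36.4% (23.8 to 50.4). In control 0 of 2 and 7 of 21 did. The 6 contigs added 2 cells to the TRBV13 loop and 1 each to the TRBV29 and TRBV19 CDR3s and to the TRBV20 chains of TRBJ1-1 and TRBJ1-6. The cause was not tested.

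The start shared by the TRBV20 chains across J segments was not the sole case. With at least 6 shared bases beyond the shared V start, 2 further pairs of chains with 1 V name and different J names were found. The rule was set after the first pair had been seen. A TRBV5 and TRBJ1-1 CDR3 in control shared its first 31 bases (14 beyond the V start) with a nonproductive TRBV5 and TRBJ1-4 contig in ATRA. A TRBV29 and TRBJ1-6 CDR3 shared 21 bases (9 beyond the V start) with a TRBV29 and TRBJ2-1 CDR3. The shared starts of these pairs and of the TRBV20 pair all hold the GGACAG hexamer, which is as long as the 6 bases of the rule. That hexamer occurred in 25.8% of TRBJ1 and 20.6% of TRBJ2 CDR3s. Why the starts match was not tested. The TRBV5 pair has the longest shared start and is shown with the shared bases in capitals.
TRBV5 and TRBJ1-1, control: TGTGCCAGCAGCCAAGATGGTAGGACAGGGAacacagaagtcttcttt
TRBV5 and TRBJ1-4, ATRA, nonproductive: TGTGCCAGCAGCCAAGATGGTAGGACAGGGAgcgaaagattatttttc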

How the data were processed

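Each receptor library was deposited as 1 table of contigs. The deposited tables hold raw read counts and UMI counts of each contig, per the file headers, beside contig length in bases, segment names, CDR3 and clonotype number. Cell Ranger 3.1.0, bcl2fastq 2.20.0 and GRCm38 are named in the submitters' processing notes. Productive TRB contigs with a TRBJ1 name were kept at a minimum of 1 UMI, all from barcodes called as cells. Cells and distinct chains were counted with Python 3.11.15, pandas 2.3.3 and SciPy 1.17.1. Shares have exact Clopper-Pearson intervals and ratios of shares exact conditional ones, both at 95%. The share that a count of 0 allows is the upper limit of its interval. In the size rule a count of 0 was set to 3. UMIs count molecules rather than PCR copies, but cells of 1 clone are not independent. Cells with several TRB chains were kept and no doublet caller was run. With 1 library per treatment no test was made.

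No genome sequence was used here, so J-end loss was scored against endings shared by the chains. All 6 TRBJ1 names and 16 of 17 TRBV partner names were found in RefSeq's gene table for GRCm38.p6.

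The text names the 6 members, V partners with at least 5 distinct TRBJ1 chains, the leading partner of each member, and CDR3s made by several sequences, found in both libraries or in at least 3 cells of 1 library. The members and lists were chosen with earlier results of these data known. Alternatives were UMI minimums of 2 and 3, counting by clonotype, chain or cell, paired cells alone, no cells with extra TRB chains, 1 mismatch in the J match, the fused V name left out, nonproductive contigs included and CDR3 nucleotides alone. The limit on endings by RefSeq length was added after seeing the data.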

Additional observations from a re-analysis of the deposited data

Results flagged for a closer look

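TRBJ1 segments were also found on nonproductive contigs, which enter no share above. The control library held 11 of them in 74 cells, 0.149 per cell (exact Poisson interval 0.0742 to 0.266), and the ATRA library 34 in 160 cells, 0.2125 per cell (0.147 to 0.297). The ATRA value lies above that of control, with overlapping intervals, and the difference has no replicate check. It is not particular to TRBJ1. Nonproductive TRBJ2 contigs numbered 30 in control and 85 in ATRA, and contigs of all kinds 159 and 496. The members were represented by 12 contigs for TRBJ1-1, 9 for TRBJ1-3, 8 for TRBJ1-6, 7 for TRBJ1-2, 5 for TRBJ1-4 and 4 for TRBJ1-5. No V name was given for 2 of 11 in control, 18.2% (2.28 to 51.8), and 22 of 34 in ATRA, 64.7% (46.5 to 80.3). TRBC1 stood on 6 of 11 and 29 of 34, while 0 of 115 nonproductive TRBJ2 contigs had a C name. The median was 1 UMI in control and 3 in ATRA. A CDR3 was given for 7 in each library, and 5 and 3 of these had the same nucleotides as a productive TRBJ1 chain, in each case of another cell.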

How the results depend on the processing

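Of 47 values of main comparisons under an alternative, 45 moved by less than their error, and of 157 values for single members or CDR3s, 154 did. The alternatives recount the same few cells and the errors are wide, so this tally cannot show that a value is stable. The TRBJ1-5 ratio, 1.89 in the main count and 0.496 among paired cells, was counted as not moved. The share of TRBJ1 contigs with a C name was 100% in control and 100% in ATRA at 3 UMIs. The TRBJ1-4 share of control cells was 0 among paired cells, and that of TRBJ1-5 was 0 at 2 and at 3 UMIs. The ratio of TRBJ1 shares, ATRA over control, ran from 1.01 to 1.31 over the main count and its 6 alternatives. Ratios for single members crossed 1 except for TRBJ1-4: TRBJ1-1 0.785 to 1.48, TRBJ1-2 0.870 to 2.23, TRBJ1-3 0.992 to 3.15, TRBJ1-4 1.47 to 2.10, TRBJ1-5 0.496 to 2.10 and TRBJ1-6 0.627 to 1.10. TRBJ1-4 and TRBJ1-5 gave no ratio where control was 0, and no share of the fused V name is left where it is left out. No paired analysis was possible because there was 1 library per treatment.

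With 22 control cells, the counts cannot show differences in single members of the size seen, and each cell is 1.43% of the control cells with a TRB. The shared ending rests on 4 chains for TRBJ1-5 and 7 for TRBJ1-3. Treatment, mouse and library cannot be told apart.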
